A study of Homo sapiens with 3 samples.

Results

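Contacts of 6 captured regions were compared between BT483 and GM06990, which are 2 of the 3 cell lines of a capture Hi-C series. BT483 is a line from a primary invasive ductal carcinoma of the breast. GM06990 is a lymphoblastoid line, derived from B lymphocytes. Each line has 2 replicate count columns, so 4 of the 6 libraries of the series enter the comparison, while SUM44, another breast cancer line, only helps to estimate the spread. Contacts of 1077 captured HindIII fragments were counted. BT483 was grown with 20% serum and insulin, and GM06990 with 15% serum, with no insulin listed. Both lines were fixed for 5 min in 2% formaldehyde. BT483 cells were lysed with trypsin and GM06990 cells with a dounce homogeniser, so line and way of lysis cannot be told apart in any difference given here. The labels do not say whether the replicates came from separate cultures, so p-values measure only the spread between these libraries, which may be technical.

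Hi-C cuts cross-linked chromatin with a restriction enzyme, here HindIII, joins DNA ends that lie close together in the nucleus, and counts the joined pairs. Capture keeps the pairs of which one end lies in a chosen region. Contacts fall steeply with distance along a chromosome, so what is informative is a target with more or fewer contacts than others at its distance. The captured regions include 3 breast cancer risk loci, 2q35 (chr2:217609776-218362744), 8q24.21 (chr8:127886760-128470692) and 9q31.2 (chr9:110758376-111099364), all poor in genes, where risk variants are thought to act through regulatory DNA on genes farther away. Regions were also captured on chromosome 3 (chr3:82599410-82938789), chromosome 16 (chr16:73599933-74183980) and chromosome 18 (chr18:38494518-39252983). Positions are on GRCh37.

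The libraries held 1860834 and 5867422 contacts outside the captured regions in BT483, against 2531103 and 4268868 in GM06990. Contacts with other chromosomes made up 69.3% and 64.7% of them in BT483, against 58.6% and 73.7% in GM06990, and contacts within 5 Mb of the captured region (near cis) 16.5% and 20.2%, against 22.7% and 12.6%. The exact (Clopper-Pearson) 95% intervals of the trans shares were 69.3 to 69.4% and 64.7 to 64.8% in BT483, against 58.5 to 58.7% and 73.6 to 73.7% in GM06990, and they cover counting error only, since no molecular identifiers are given for the pairs. The lines overlapped in both shares. The replicates of SUM44, which enter the estimate of the spread, lay closer together than those of either line. Their shares were 42.0% and 45.1% for trans and 37.5% and 35.7% for near cis. The chromosome 16 region took 28.0% and 13.7% of the contacts in BT483, against 18.6% and 18.9% in GM06990, so the BT483 replicates stood far apart there. The 8q24.21 region took 29.2% and 34.6% in BT483, against 20.7% and 19.7% in GM06990, and 2q35 took 12.5% and 19.4%, against 25.6% and 25.4%, with no overlap between the lines in either.

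Near cis counts were summed over the captured fragments and divided by the count expected from the distance curve of the same replicate and region. This gives an observed over expected ratio, with 1 as the level of the curve. The curve did not follow the counts at every distance. From 1000 to 2000 kb around the chromosome 16 region, the ratio was 1.48 and 1.41 in BT483, against 1.02 and 1.01 in GM06990. From 500 to 1000 kb there it was 0.567 and 0.756, against 0.909 and 0.939. The part of this misfit in the differences between the lines was not tested. In windows of 250 kb, 96 of 251 (38.2%) differed between BT483 and GM06990 in edgeR's quasi-likelihood test at an adjusted p under 0.05. BT483 was higher in 51 (20.3%) and lower in 45 (17.9%), and the replicates of the lines did not overlap in 176 (70.1%). The share called ran from 66.7% of the windows around the chromosome 16 region (12 higher, 16 lower) through 50% at 8q24.21 (13 and 8), 42.9% at 9q31.2 (9 and 9), 33.3% at 2q35 (8 and 6) and 24.4% on chromosome 18 (7 and 3) to 11.9% on chromosome 3 (2 and 3). Leaving out 1 GM06990 library lowered the count to 46 or 40, and 31 windows (18 higher, 13 lower) were called in all 4 fits that left out 1 library of these lines: 11 around the chromosome 16 region, 8 at 8q24.21, 6 at 9q31.2, 4 at 2q35, 2 on chromosome 18 and none on chromosome 3.

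**Figure D1:**
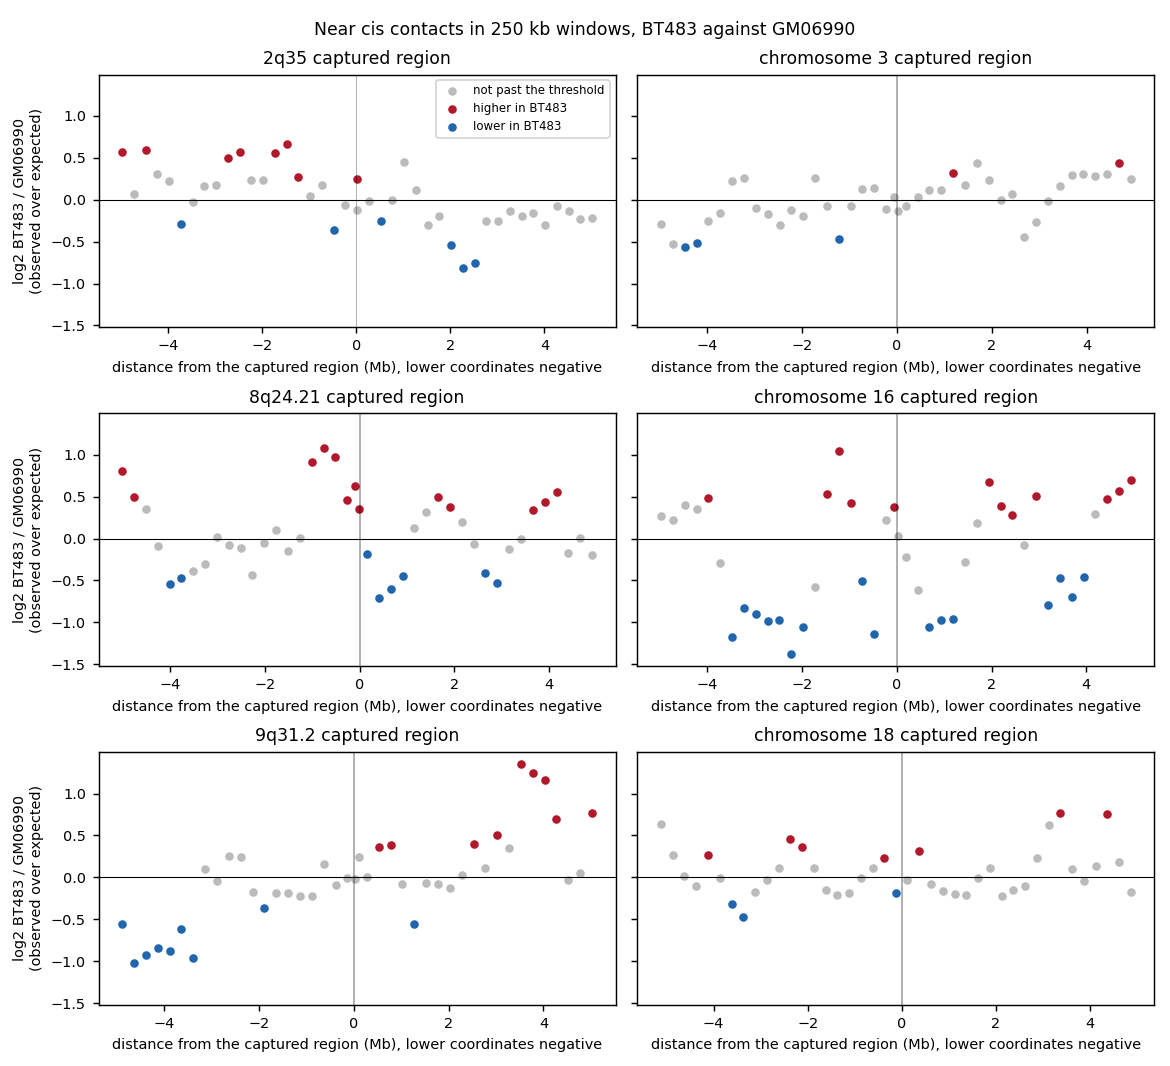
Log2 ratio of BT483 over GM06990 in observed over expected contacts (vertical axis) against the distance of each 250 kb window from the captured region in Mb (horizontal axis), 1 panel for each region and 1 point for each window. Red points were higher and blue points lower in BT483 at an adjusted p under 0.05, and the chromosome 16 panel has the most called windows (28 of 42), in alternating stretches.

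The profiles along the chromosome were alike between the lines to different degrees. Over the 41 chromosome 18 windows, Pearson's r of log2 observed over expected ratios between a BT483 and a GM06990 replicate was 0.87 to 0.92, close to the 0.95 between BT483 replicates and 0.97 between GM06990 replicates. At 9q31.2 it was 0.20 to 0.54 over 42 windows, while the replicates reached 0.89 in BT483 and 0.95 in GM06990. On chromosome 3, where counts were lowest, the BT483 replicates themselves correlated at 0.66. Neighbouring windows share the captured fragments, the library and its distance curve, so these values describe the profiles and carry no p.

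Around the chromosome 16 region the difference fell into stretches of higher and lower contact. The window at 72.25 Mb had observed over expected ratios of 3.22 and 2.90 in BT483, against 1.60 and 1.38 in GM06990, a log2 difference of 1.04 ± 0.09 (SE, adjusted p = 0.000653). Both neighbours were higher as well, by 0.53 at 72.0 Mb and 0.43 at 72.5 Mb. On the far side of them, 7 windows in a row from 70 to 71.75 Mb were lower, by 0.82 to 1.38 on the log2 scale, and 3 of them were called without each library. The lowest, at 71.25 Mb, had ratios of 0.392 and 0.555 in BT483, against 1.19 and 1.29 in GM06990 (log2 -1.38 ± 0.16, adjusted p = 0.00186). In both windows the replicates of each line lay together and the lines were apart.

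Genes of that lower stretch showed it in their own 50 kb windows. The window of CALB2, which encodes the calcium-binding protein calretinin, had 70 and 219 contacts in BT483, against 309 and 294 in GM06990. Its observed over expected ratios were 0.310 and 0.430 in BT483, against 1.18 and 1.14 in GM06990 (log2 -1.61 ± 0.17, adjusted p = 0.000143). CALB2 thus stood below the distance curve in both BT483 libraries and above it in both GM06990 libraries. HYDIN, a ciliary gene with a near-identical copy on another chromosome whose reads may not be told apart, had ratios of 0.614 and 0.527 in BT483, against 1.19 and 1.42 in GM06990 (log2 -1.21 ± 0.18, adjusted p = 0.000791). The window of VAC14, a scaffold of the kinase complex that makes a phosphoinositide of endosomes, was lower by 1.04 ± 0.16 (adjusted p = 0.000949), that of CHST4, a sulfotransferase of carbohydrates, by 1.18 ± 0.17 (adjusted p = 0.000766), and that of MARVELD3, a tight junction protein, by 1.10 ± 0.17 (adjusted p = 0.00107). These calls were kept in each fit without 1 library. TAT, tyrosine aminotransferase, was lower by 1.17 ± 0.24 (adjusted p = 0.0047), but not past the threshold without GM06990 replicate 1 (adjusted p = 0.058) or replicate 2 (0.073), and its BT483 replicates were apart at 0.322 and 0.646.

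On the other side of the chromosome 16 region, 3 windows from 74.75 to 75.5 Mb were lower by 0.96 to 1.06, 1 of them called without each library. There contacts were scarce in both lines: the window of FA2H, which hydroxylates fatty acids of myelin lipids, had ratios of 0.176 and 0.182 in BT483, against 0.342 and 0.378 in GM06990 (log2 -1.01 ± 0.15, adjusted p = 0.000766). The window shared by WDR59, a subunit of a complex of the mTORC1 pathway, and ZNRF1, a ubiquitin ligase, was lower by 1.14 ± 0.24 (adjusted p = 0.00531). BCAR1, an adaptor of focal adhesions, was lower by 1.13 ± 0.27 (adjusted p = 0.0118). Without GM06990 replicate 2 these last 2 windows had adjusted p of 0.095 and 0.16, and without BT483 replicate 2 BCAR1 had 0.068. LDHD, a mitochondrial lactate dehydrogenase, was lower by 1.14 ± 0.30 (adjusted p = 0.0159, but 0.057 without GM06990 replicate 1 and 0.21 without replicate 2). Farther out, 4 windows from 77.25 to 78.25 Mb were lower by 0.46 to 0.80, 2 of them called without each library. There the window of ADAMTS18, a secreted metalloprotease, was lower by 0.81 ± 0.15 (adjusted p = 0.00315), also without each library. The start of WWOX, an oxidoreductase gene at a fragile site, was lower by 0.51 ± 0.15 (adjusted p = 0.0306), a call lost without BT483 replicate 2 (0.061), GM06990 replicate 1 (0.084) or replicate 2 (0.13). Within the body of WWOX and beyond, the 3 windows from 78.5 to 79.25 Mb were higher, by 0.47 to 0.70, 1 of them called without each library. Nearest to the region, the start of PSMD7, a subunit of the proteasome, was lower by 0.43 ± 0.14 (adjusted p = 0.0395), and GLG1, a Golgi glycoprotein, by 0.51 ± 0.17 (adjusted p = 0.0466). PSMD7 lost its call without BT483 replicate 1 (adjusted p = 0.068) and without GM06990 replicate 1 (0.13) or 2 (0.22). GLG1 lost its call without BT483 replicate 1 (adjusted p = 0.12) and without GM06990 replicate 1 (0.061) or 2 (0.36), and with a separate distance curve on each side (0.13). CDH1, which encodes E-cadherin, the adhesion protein of epithelial cells, did not pass the test, with ratios of 0.718 and 0.713 in BT483, against 0.656 and 0.5 in GM06990 (log2 0.31 ± 0.31, adjusted p = 0.503).

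Of the 42 windows with a gene start around the chromosome 16 region, none was higher in BT483 and 24 were lower, with a median log2 of -0.59. Of the other 156 windows there, 28 were higher and 48 lower, with a median of 0.01. The trans contacts that the captured regions of the other chromosomes made with the 42 windows of 250 kb around it had a median log2 difference of 0.00, with a range from -0.55 to 0.52.

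At 9q31.2 the largest differences lay on the telomeric side, well beyond the captured region. In 4 windows from 114.5 to 115.5 Mb BT483 was higher by 0.70 to 1.36. The window at 114.5 Mb had ratios of 1.46 and 1.81 in BT483, against 0.556 and 0.738 in GM06990 (log2 1.36 ± 0.17, adjusted p = 0.00228), and the lines did not overlap in any of the 4. All 4 were called without each library. With a separate distance curve for each side of the region, the first 3 of them were higher by 0.96, 0.80 and 0.65 and still called, and the last by 0.13 and not called (adjusted p = 0.39).

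The gene with the largest called increase of all listed genes, UGCG, starts in this stretch. It encodes ceramide glucosyltransferase, the first enzyme of glycosphingolipid synthesis. Its 50 kb window had 48 and 420 contacts in BT483, against 40 and 58 in GM06990, or ratios of 1.21 and 1.96, against 0.382 and 0.507 (log2 1.91 ± 0.25, adjusted p = 0.000395). UGCG stood above the distance curve in both BT483 libraries and below it in both GM06990 libraries. PTBP3, an RNA-binding splicing regulator, had ratios of 1.60 and 1.44 in BT483, against 0.508 and 0.671 in GM06990 (log2 1.33 ± 0.25, adjusted p = 0.00314). Both calls were kept without each library and with separate curves, where the log2 differences were 1.5 for UGCG and 0.81 for PTBP3. HSDL2, a dehydrogenase-like protein of peroxisomes and mitochondria, was higher by 1.06 ± 0.25 (adjusted p = 0.00962), but only by 0.53 with separate curves (0.15), and it lost the call without GM06990 replicate 1 (0.066) or 2 (0.075). SLC31A1, the main copper importer of cells, was higher by 0.87 ± 0.20 (adjusted p = 0.00827), but by 0.17 with separate curves (0.59), and it had 0.085 without GM06990 replicate 2.

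The 250 bases before the start of UGCG are shown because its window carries the largest gene difference, beside those before the start of IGFBP5 at 2q35, the studied neighbour of that risk locus. Both are from RefSeq on GRCh38.p14, a later build than that of the counts, at chr9:111896564-111896813 on the plus strand and chr2:216695550-216695799 on the minus strand, written 5′ to 3′. Capitals mark the letters AGGGGGC, part of the core motif of the chromatin loop protein CTCF, searched on both strands.
UGCG: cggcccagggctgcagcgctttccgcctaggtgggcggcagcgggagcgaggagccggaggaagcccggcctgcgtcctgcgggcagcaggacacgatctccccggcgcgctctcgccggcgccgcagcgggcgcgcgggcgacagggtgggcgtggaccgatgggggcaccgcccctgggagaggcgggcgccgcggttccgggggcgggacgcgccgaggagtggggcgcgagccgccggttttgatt
IGFBP5: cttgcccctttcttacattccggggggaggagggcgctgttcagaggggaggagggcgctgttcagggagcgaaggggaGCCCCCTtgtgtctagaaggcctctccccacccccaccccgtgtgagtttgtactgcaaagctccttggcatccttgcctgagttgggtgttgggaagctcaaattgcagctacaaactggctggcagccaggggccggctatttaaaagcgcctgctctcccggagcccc
These letters occur once before the start of IGFBP5, on the opposite strand, and in none of the 250 bases before UGCG. Of 35116 such RefSeq stretches, 13.3% hold them. Neither stretch holds AAGCTT, the site cut by HindIII, which 5.02% of them hold.

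Closer to the 9q31.2 region, several genes were moderately higher in BT483. TMEM245, a membrane protein, had ratios of 0.606 and 0.763 in BT483, against 0.391 and 0.440 in GM06990 (log2 0.75 ± 0.15, adjusted p = 0.00363). CTNNAL1, a relative of alpha-catenin, was higher by 0.65 ± 0.15 (adjusted p = 0.00827). The window shared by IKBKAP, a subunit of the Elongator complex, and FAM206A was higher by 0.39 ± 0.12 (adjusted p = 0.0382). Each of these lost the call without at least 1 library: TMEM245 without GM06990 replicate 1 (0.055), CTNNAL1 without GM06990 replicate 1 (0.07) or 2 (0.079), and IKBKAP without BT483 replicate 2 (0.067) or GM06990 replicate 1 (0.14) or 2 (0.11), and with separate curves (0.06). KLF4, a transcription factor of epithelial and stem cells, had high ratios in both lines, 2.39 and 2.01 in BT483, against 1.93 and 2.26 in GM06990, which overlapped (log2 0.06 ± 0.13, adjusted p = 0.763). RAD23B, a protein of DNA repair, ZNF462, a zinc finger protein, and ACTL7B, an actin-like protein of testis, had log2 differences of 0.28, -0.20 and -0.15 with adjusted p of 0.216, 0.289 and 0.515. Of the 22 windows with a gene start on the telomeric side of 9q31.2, 8 were higher and none lower, with a median log2 of 0.40. Of the other 78 there, 22 were higher and 3 lower, with a median of 0.13.

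On the centromeric side of 9q31.2, 7 windows from 105.75 to 107.5 Mb were lower by 0.55 to 1.02, and none of them was called in every fit without 1 library. This stretch depended on the shape of the distance curve. With a separate curve for each side, the window at 107.25 Mb was lower by 0.60 and called (adjusted p = 0.0044). The window at 105.75 Mb turned to 0.44 higher (0.018). The other 5 were lower by 0.12 to 0.29 and not called. SMC2, a subunit of condensin, which compacts chromosomes for mitosis, had ratios of 0.703 and 0.598 in BT483, against 1.03 and 1.17 in GM06990 (log2 -0.81 ± 0.23, adjusted p = 0.0243), and was lower by 0.21 with separate curves (0.54). Its call was lost too without BT483 replicate 2 (0.16), GM06990 replicate 1 (0.07) or replicate 2 (0.16).

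At 8q24.21 the contacts towards PVT1 were lower in BT483 and those of a stretch on the opposite side were higher. PVT1 is a long noncoding RNA gene next to MYC, and MYC is a transcription factor that drives cell growth. The window of the PVT1 start had 612 and 3645 contacts in BT483, against 2252 and 2513 in GM06990. Its ratios were 1.01 and 1.26 in BT483, against 1.75 and 2.20 in GM06990 (log2 -0.79 ± 0.14, adjusted p = 0.00194). The window of MYC had ratios of 2.11 and 1.82 in BT483, against 2.08 and 2.01 in GM06990 (log2 -0.06 ± 0.09, adjusted p = 0.649). MYC was about as far above the distance curve in every library and the lines overlapped, while PVT1 was nearer the curve in BT483. With a separate curve for each side, MYC had a log2 difference of 0.20 (adjusted p = 0.0995).

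TMEM75, whose start was placed farther out than that of PVT1, was lower by 0.69 ± 0.12 (adjusted p = 0.0021). Only gene starts were placed, so this window may lie within PVT1. Both PVT1 and TMEM75 were called without each library, and with separate curves they were lower by 0.50 (adjusted p = 0.013) and 0.39 (0.023). The 4 windows of 250 kb from 128.5 to 129.5 Mb were all lower, by 0.18 to 0.71, and called without each library. With separate curves the first of them was at 0.01 and not called (adjusted p = 0.86), and the other three were lower by 0.20 to 0.41. Farther out, FAM49B, which restrains the actin regulator RAC1, had ratios of 0.804 and 1.08 in BT483, against 1.61 and 2.23 in GM06990 (log2 -0.99 ± 0.18, adjusted p = 0.00258), with an adjusted p of 0.06 without GM06990 replicate 2. EFR3A, which anchors a lipid kinase at the plasma membrane, was lower by 0.54 ± 0.14 (adjusted p = 0.0148), a call lost without GM06990 replicate 1 (0.066) or 2 (0.11) and with separate curves (0.086). On the centromeric side, DERL1, which helps to clear misfolded proteins from the endoplasmic reticulum, was lower by 0.49 ± 0.17 (adjusted p = 0.0475), a call lost without any one of the 4 libraries (0.054 to 0.23) and with separate curves (0.13). CCDC26, a long noncoding RNA gene, GSDMC, a gasdermin that forms membrane pores, and ADCY8, an adenylyl cyclase, had log2 differences of 0.14, 0.16 and 0.01, with adjusted p of 0.519, 0.46 and 0.952. CCDC26 reached ratios of 2.93 and 2.08 in BT483, against 2.25 and 2.24 in GM06990.

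On the centromeric side of 8q24.21, in the gene-poor stretch between TRIB1 and the captured region, 5 windows from 126.75 to 128 Mb were higher in BT483 by 0.35 to 1.08, and 3 of them were called without each library. The window at 127.0 Mb had ratios of 0.713 and 0.665 in BT483, against 0.348 and 0.303 in GM06990 (log2 1.08 ± 0.08, adjusted p = 0.000649). Both lines were thus below the distance curve and GM06990 further so. With separate curves for the sides, the first 3 of the 5 were higher by 0.28, 0.34 and 0.21 and called, and the last 2 were not, at -0.19 and 0.03. FAM84B, the only listed gene start in this stretch, had ratios of 0.613 and 0.880 in BT483, against 0.541 and 0.570 in GM06990 (log2 0.45 ± 0.15, adjusted p = 0.0467). It turned to -0.26 (0.19) with separate curves, and it lost the call without BT483 replicate 2 (0.29), GM06990 replicate 1 (0.22) or replicate 2 (0.18). TRIB1, a pseudokinase, did not pass the test, with ratios of 0.491 and 0.567 in BT483, against 0.544 and 0.915 in GM06990 (log2 -0.44 ± 0.21, adjusted p = 0.143). With separate curves it was lower by 0.77 and called (0.0082).

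Trans contacts of the other captured regions with the windows around 8q24.21 were higher in BT483 throughout, with a median log2 of 0.79 and a range from 0.63 to 1.13 over 41 windows. The near cis ratios are scaled within each region and do not carry this level. Its part in the near cis differences was not tested.

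At 2q35, IGFBP5, whose product binds insulin-like growth factors, had high ratios in both lines, 2.51 and 2.19 in BT483, against 1.90 and 1.79 in GM06990 (log2 0.34 ± 0.09, adjusted p = 0.0149). The lines did not overlap, but without GM06990 replicate 2 the adjusted p was 0.095. Its neighbour IGFBP2, of the same family, had 0.979 and 1.25 in BT483, against 1.09 and 1.07 in GM06990, which overlapped (log2 0.06 ± 0.11, adjusted p = 0.745). MARCH4, a membrane-bound ubiquitin ligase beyond IGFBP2, was lower, with ratios of 0.573 and 0.569 in BT483, against 0.969 and 0.941 in GM06990 (log2 -0.74 ± 0.11, adjusted p = 0.00061). SMARCAL1, a helicase that restarts stalled replication forks, was lower by 0.40 ± 0.10 (adjusted p = 0.0136, and 0.073 without GM06990 replicate 2). ABCA12, a lipid transporter of the skin barrier, was higher, with ratios of 0.830 and 0.785 in BT483, against 0.484 and 0.451 in GM06990 (log2 0.78 ± 0.14, adjusted p = 0.00215). ATIC, an enzyme of purine synthesis, was higher by 0.54 ± 0.15 (adjusted p = 0.0205), a call lost without GM06990 replicate 1 (0.13) or 2 (0.072) and with separate curves, where it was higher by 0.30 (0.14). VWC2L, a secreted protein, was higher by 0.54 ± 0.17 (adjusted p = 0.0398), but had 0.34 without BT483 replicate 2, 0.07 and 0.25 without GM06990 replicates 1 and 2, and 0.4 with separate curves. MARCH4 and ABCA12 were called without each library, and with separate curves at log2 -0.82 and 0.51. The 250 kb window at 216.0 Mb, beside ABCA12, was higher too, by 0.66 ± 0.09 (adjusted p = 0.00248).

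Telomeric of 2q35, the window shared by USP37, a deubiquitinase, and RQCD1, a subunit of an mRNA deadenylation complex, was higher by 0.67 ± 0.16 (adjusted p = 0.0111). PLCD4, a phospholipase C, was higher by 0.50 ± 0.16 (adjusted p = 0.0426, but 0.12 without BT483 replicate 2 and 0.25 without GM06990 replicate 1). SLC4A3, an anion exchanger of heart and brain, had ratios of 0.729 and 0.713 in BT483, against 1.23 and 1.73 in GM06990 (log2 -1.05 ± 0.25, adjusted p = 0.0104), from as few as 12 and 95 contacts in BT483, against 86 and 126 in GM06990. The window shared by CHPF, OBSL1 and INHA was lower by 0.84 ± 0.23 (adjusted p = 0.018, and 0.072 with separate curves). CHPF makes chondroitin chains, OBSL1 is a cytoskeletal protein and INHA a subunit of the hormone inhibin. ASIC4, of the acid-sensing ion channel family, was lower by 0.83 ± 0.28 (adjusted p = 0.0469), but had 0.17 with separate curves and 0.054, 0.37 and 0.42 without BT483 replicate 1, BT483 replicate 2 and GM06990 replicate 2. The calls of USP37, SLC4A3 and CHPF were lost without BT483 replicate 2 (adjusted p of 0.069, 0.12 and 0.34 in that order). Without a GM06990 replicate they were lost as well, USP37 without replicate 1 (0.08) and the other two without replicate 2 (0.12 and 0.17). BARD1, the partner of BRCA1, ERBB4, a receptor of the epidermal growth factor receptor family, and PAX3, a developmental transcription factor, did not pass the test, with log2 differences of 0.22, 0.16 and -0.43 and adjusted p of 0.271, 0.635 and 0.0613. Trans contacts with the 2q35 windows were lower in BT483, with a median log2 of -0.39 and a range from -1.01 to -0.03.

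The chromosome 18 and chromosome 3 regions, both in gene-poor stretches, differed less. On chromosome 18 the largest difference was at 42.5 Mb, with ratios of 0.675 and 0.787 in BT483, against 0.436 and 0.425 in GM06990 (log2 0.77 ± 0.10, adjusted p = 0.00248). It was kept without each library, as was the window at 36.0 Mb, with ratios of 1.32 and 1.34 in BT483 against 0.973 in both GM06990 replicates (log2 0.45 ± 0.07, adjusted p = 0.0036). PSTPIP2, which binds membranes and the actin skeleton, and EPG5, needed for autophagosomes to fuse with lysosomes, were higher by 0.88 ± 0.30 (adjusted p = 0.047) and 0.78 ± 0.25 (0.0408). PSTPIP2 lost its call without any one of the 4 libraries (0.059 to 0.27), and EPG5 without BT483 replicate 2 (0.079) or GM06990 replicate 1 (0.11) or 2 (0.2). With separate curves they had log2 differences of 0.61 (0.14) and 0.53 (0.16). PIK3C3, the kinase that starts autophagy, RIT2, a neuronal GTPase, SYT4, a synaptotagmin, SETBP1, a nuclear protein mutated in leukaemia, and CELF4, a neuronal RNA-binding protein, had log2 differences of 0.34, -0.14, 0.02, 0.64 and -0.48, with adjusted p from 0.0574 to 0.927. On chromosome 3 all 6 windows with a gene start stayed under the threshold, among them those of GBE1, which branches glycogen, ROBO1, an axon guidance receptor, and CADM2, a cell adhesion protein, with log2 differences of -0.08, 0.06 and 0.28. Of the 5 called 250 kb windows there, that at 81.25 Mb had ratios of 1.00 and 1.17 in BT483, against 1.55 and 1.47 in GM06990 (log2 -0.47 ± 0.10, adjusted p = 0.0135). Each of the 5 lost its call without at least 1 library, and that at 81.25 Mb without GM06990 replicate 1 (0.079) or 2 (0.058).

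Over all 6 regions, 166 windows of 50 kb held the start of at least 1 of 205 listed genes. BT483 was higher in 17 and lower in 37 of them, or 54 called, with a median log2 of -0.04. Over all 1205 windows of 50 kb, 324 (26.9%) were called, 156 higher (12.9%) and 168 lower (13.9%), with a median of -0.02, and the replicates of the lines did not overlap in 61.6%. Without GM06990 replicate 1 or 2 the windows with gene starts called were 28 or 18, and all windows called 163 or 126. In every fit without 1 library, 13 of the windows with gene starts (3 higher, 10 lower) were called. The 3 were those of ABCA12, UGCG and PTBP3, and the 10 were those of MARCH4, PVT1, TMEM75, VAC14, HYDIN, CALB2, CHST4, MARVELD3, FA2H and ADAMTS18.

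**Figure D2:**
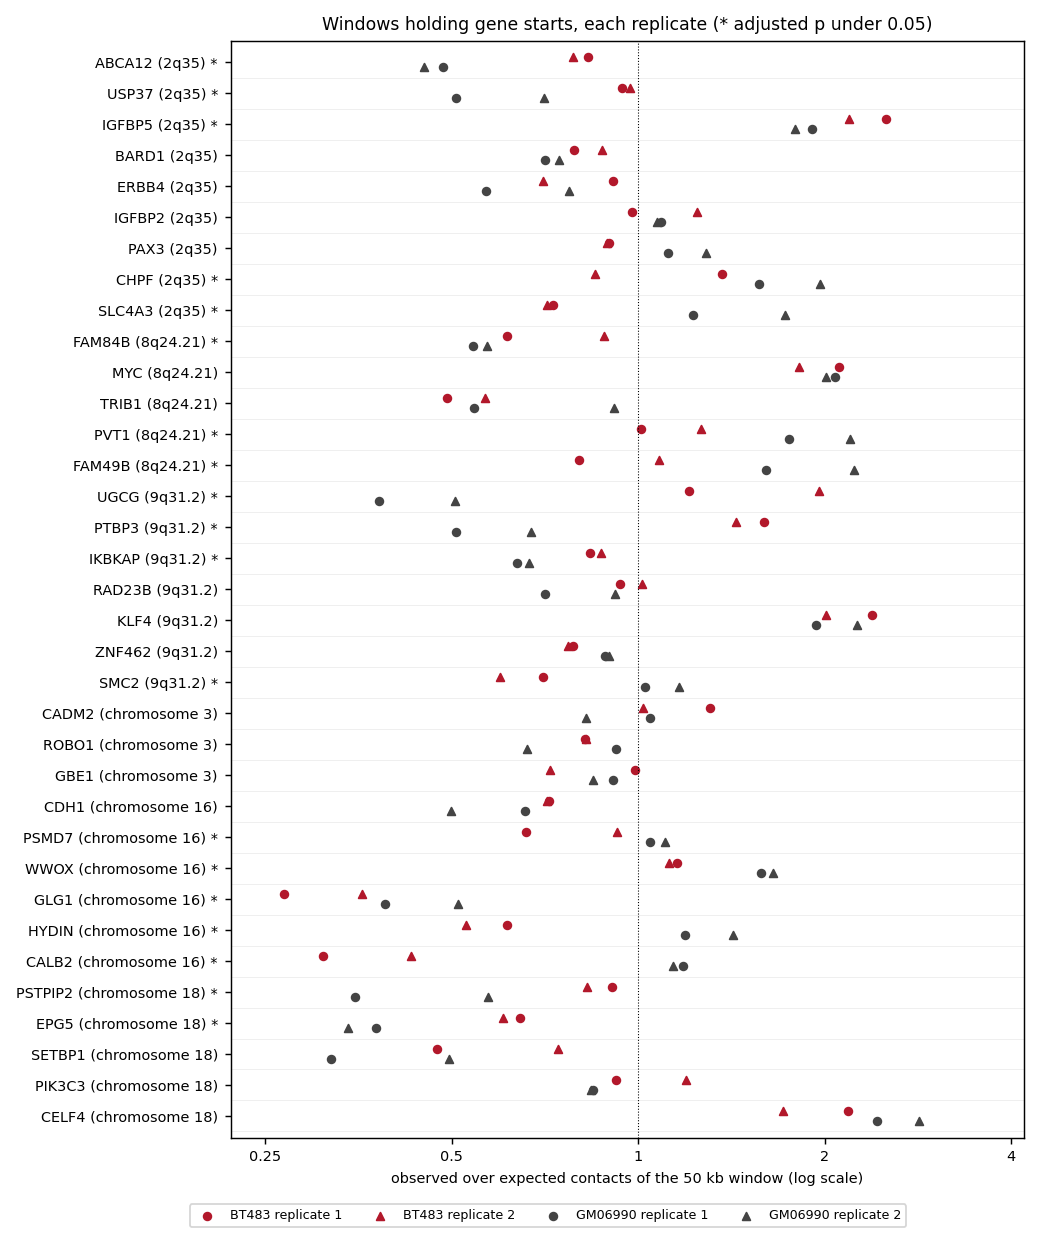
Observed over expected contacts (horizontal axis, log scale) of 50 kb windows that hold the named gene start, red for BT483 and dark grey for GM06990, with circles for replicate 1 and triangles for replicate 2; an asterisk marks an adjusted p under 0.05. UGCG (1.21 and 1.96 in BT483, against 0.382 and 0.507 in GM06990) and CALB2 (0.310 and 0.430, against 1.18 and 1.14) are the widest apart in the 2 directions.

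At single HindIII fragments, 1288 of 7865 (16.4%) were called, 665 higher (8.46%) and 623 lower (7.92%) in BT483, and the lines did not overlap in 51.7%. Without GM06990 replicate 1 or 2 the count was 557 or 259. The direction went with the length of the fragment. A fragment was tested if either line reached 50 contacts, so a sparse one could enter only through the line where it is higher. The part of this filter in the counts by length was not tested. Of 306 tested fragments of up to 200 bp, 110 were higher and none lower, by edgeR's test, with a median log2 of 0.70. Their median observed over expected ratios were 0.604 and 0.753 in BT483, against 0.417 and 0.485 in GM06990. These tested short fragments were thus under-represented in all 4 libraries and less so in BT483. All fragments of this length, tested or not, took 3.61% and 3.99% of near cis contacts in BT483, against 2.16% and 2.49% in GM06990. Of 1712 fragments over 5000 bp, 95 were higher and 197 lower, with a median of -0.14. When fragment length was a term of the distance curve, 31 of the shortest fragments were higher and 18 lower, and 1041 of the 1288 calls were kept. Over fragments of at least 1 kb alone, 377 were higher and 589 lower. With the length term, 94 of the 96 windows of 250 kb and 312 of the 324 of 50 kb were still called. Over fragments of at least 1 kb alone, 40 windows of 250 kb were higher and 60 lower, beside 51 and 45 over all fragments, and 108 windows of 50 kb were higher and 175 lower, beside 156 and 168.

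**Figure D3:**
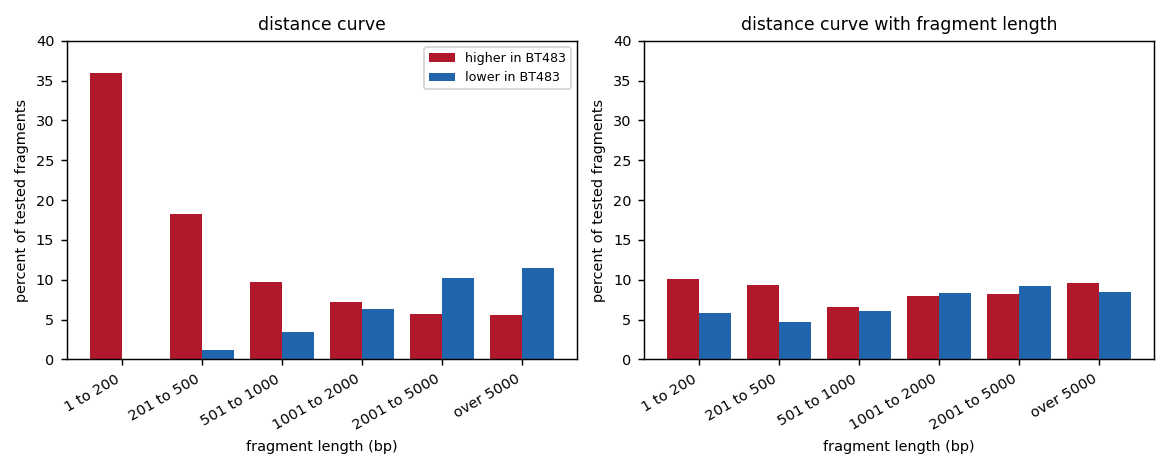
Percent of tested HindIII fragments that were higher (red) or lower (blue) in BT483 at an adjusted p under 0.05 (vertical axis), by fragment length in bp (horizontal axis), with the distance curve alone (left) and with fragment length as a term of it (right). On the left the share of higher fragments is largest among the shortest, with 110 of the 306 fragments of up to 200 bp higher and none lower. On the right the counts there are 31 and 18.

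The fragments with the largest differences show this. Of the 24 with the largest increases, up to 4 for each region, 17 were at most 500 bp long, and the median length was 121 bp, while none of the 24 with the largest decreases was that short and their median was 3884 bp. Among the longer ones, the fragment chr8:129215845-129218722, 256 kb from the start of TMEM75, had 49 and 223 contacts in BT483, against 246 and 241 in GM06990. Its ratios were 1.15 and 0.939 in BT483, against 2.71 and 2.94 in GM06990 (log2 -1.48 ± 0.20, adjusted p = 0.000103, and log2 -1.41 with the length term). On chromosome 16, chr16:70936633-70940571, 107 kb from the start of VAC14, had 9 and 14 contacts in BT483, against 41 and 35 in GM06990 (log2 -2.04 ± 0.36, adjusted p = 0.000903). In the fits without 1 library, the log2 difference was -1.59 to -1.29 for the chromosome 8 fragment and -2.24 to -1.71 for the chromosome 16 fragment. The chromosome 16 fragment, sparse in BT483, could enter the test only through GM06990, the line where it was higher. Both fragments were picked for the size of their decrease. Their p-values do not allow for this selection, and its part in these differences was not tested.

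Counts beyond 5 Mb on the same chromosome were corrected for distance only, and the part of the copy number of the target DNA in them was not tested. There, 277 of 791 bins of 1 Mb (35%) were called, 128 higher (16.2%) and 149 lower (18.8%) in BT483, with no overlap of the lines in 67.4%. Without GM06990 replicate 1 or 2 the count was 92 or 161, and without BT483 replicate 1 it was 423. In each fit without 1 library, 85 of the 277 (43 higher, 42 lower) were called. The share called was 70% for the chromosome 16 region, 50.5% for 9q31.2, 48.9% for 8q24.21, 33.3% for chromosome 18, 27.7% for 2q35 and 12.9% for chromosome 3. The largest difference was between 8q24.21 and the bin at 37 Mb of chromosome 8, on the short arm, where ZNF703 lies, a transcriptional regulator gene often amplified in breast cancer. It had 1918 and 8943 contacts in BT483, against 309 and 485 in GM06990. Its observed over expected ratios were 7.13 and 9.05 in BT483, against 1.09 and 1.15 in GM06990 (log2 2.85 ± 0.14, adjusted p = 0.000174). The bins at 39, 40 and 41 Mb were higher by 2.41, 2.30 and 1.12, whereas the bin at 38 Mb between them, with ratios of 1.53 and 1.85 in BT483 against 1.48 and 1.42 in GM06990, did not pass the test (log2 0.23 ± 0.12, adjusted p = 0.173). Toward the tip of the short arm, 17 bins in a row from 17 to 34 Mb were lower in BT483, by 0.69 to 2.08, and 13 of them were called without each library.

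Far cis contacts of the chromosome 16 region were lower in BT483 from 52 to 58 Mb, by 0.97 to 2.38 over 6 bins (4 of them called without each library), and from 84 to 90 Mb, by 1.26 to 2.33 over 6 bins (3 of them). They were higher from 59 to 64 Mb, by 0.93 to 1.29 over 5 bins (all 5). The bin at 54 Mb had ratios of 0.255 and 0.484 in BT483, against 2.04 and 1.86 in GM06990 (log2 -2.38 ± 0.27, adjusted p = 0.00144), and the bin at 61 Mb had 3.49 and 2.56, against 1.24 and 1.23 (log2 1.29 ± 0.15, adjusted p = 0.00152). Neighbouring stretches thus went opposite ways in the same libraries.

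Contacts of 9q31.2 were lower in BT483 over 6 bins from 117 to 123 Mb, 1 of them called without each library, and higher over 13 bins from 124 to 137 Mb, 5 of them called without each. At 130 Mb ratios were 0.737 and 0.789 in BT483, against 0.202 and 0.315 in GM06990 (log2 1.56 ± 0.21, adjusted p = 0.00275). The lowest bin of the first stretch, at 121 Mb, had 0.818 and 0.409 in BT483, against 1.52 and 1.49 in GM06990 (log2 -1.39 ± 0.28, adjusted p = 0.00978), and it lost the call without GM06990 replicate 1 (adjusted p = 0.0744) or replicate 2 (0.0600). At 2q35 the bins from 209 to 213 Mb were higher, with ratios of 0.790 and 0.823 in BT483, against 0.433 and 0.437 in GM06990 at 212 Mb (log2 0.89 ± 0.09, adjusted p = 0.000785).

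**Figure D4:**
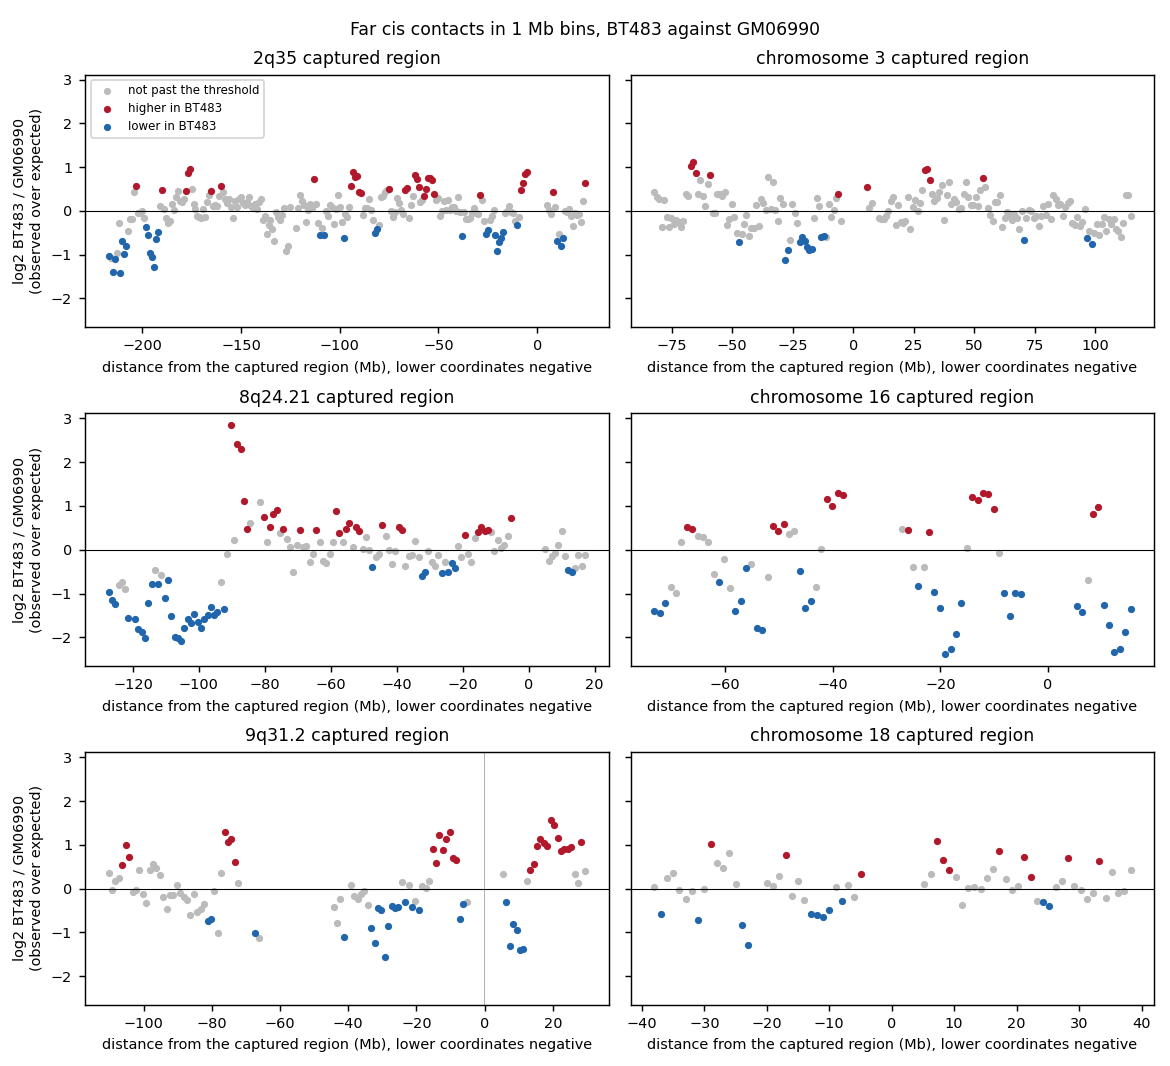
Log2 ratio of BT483 over GM06990 in observed over expected contacts (vertical axis) of 1 Mb bins farther than 5 Mb from the captured region, against their distance from it in Mb (horizontal axis), 1 panel for each region. Red bins were higher and blue bins lower in BT483 at an adjusted p under 0.05; the highest point, at 2.85, is the bin at 37 Mb of chromosome 8 seen from 8q24.21.

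Contacts with other chromosomes were compared in 1 Mb bins. Levels are given as CPM, which scales the trans contacts of each library to the same total, while log2 differences and calls come from the fit with TMM factors. Like the cis counts, these were not corrected for the number of copies of the target DNA in a line. The part of copy number in the differences was not tested. Of 2864 bins, 1111 (38.8%) were called, 533 higher (18.6%) and 578 lower (20.2%) in BT483, and the replicates of the lines did not overlap in 69%. This count rested on having both GM06990 libraries: without replicate 1 a single bin was called, and without replicate 2 none was by edgeR, although 904 and 885 bins had an unadjusted p under 0.05. Without BT483 replicate 1 or 2 it was 2234 or 1960. DESeq2 called 1052 bins on all libraries. Without SUM44 in the fit, edgeR called 653. All 1111 bins kept their direction in each fit without 1 library. The trans calls named here have this limit.

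The largest trans difference was again at 37 Mb of chromosome 8, seen here from the 5 captured regions on other chromosomes, with 1661 and 1946 CPM in BT483, against 271 and 280 in GM06990 (log2 2.74 ± 0.10, adjusted p = 0.000359). The ratio of BT483 over GM06990 was 11.1 from 2q35, 10 from 9q31.2, 8.04 from chromosome 3, 6.61 from chromosome 18 and 5.12 from chromosome 16. Without GM06990 replicate 1 this was the bin still called (adjusted p = 0.0299), and without replicate 2 its adjusted p was 0.0557. The bins at 39 and 40 Mb were higher by 1.73 and 1.46. The bins at 23, 27 and 30 Mb of the same arm were lower by 1.47, 1.35 and 1.32, with 127 and 129 CPM in BT483, against 360 and 369 in GM06990 at 23 Mb. Bins along the long arm of chromosome 8 were higher, with a median log2 of 0.69 over 42 bins from 93 to 135 Mb.

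The bin at 106 Mb of chromosome 14, which holds the immunoglobulin heavy chain genes, had 341 and 338 CPM in BT483, against 105 and 115 in GM06990 (log2 1.66 ± 0.12, adjusted p = 0.003). It was higher from each of the 6 captured regions, by 2.53 to 4.54 times. The largest ratio, from chromosome 3, rests on few contacts, 14 and 33 in BT483, against 1 and 12 in GM06990. On chromosome 22, the bin at 22 Mb, which holds immunoglobulin lambda light chain genes, had 387 and 504 CPM in BT483, against 198 and 206 in GM06990 (log2 1.17 ± 0.17, adjusted p = 0.00451). Its neighbours at 20, 21 and 23 Mb were higher by 1.05, 1.06 and 1.15, so the difference there was not particular to that bin.

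Of the called bins, 556 lay in runs of at least 8 neighbours called in the same direction. BT483 was higher over 77 bins in a row on chromosome 1 from 160 to 237 Mb (median log2 0.77) and 30 on chromosome 14 from 30 to 60 Mb (0.80). It was lower over 67 bins on chromosome 6 from 95 to 162 Mb (median -0.90), 25 on chromosome 14 from 70 to 95 Mb (-0.93), 24 on chromosome 22 from 25 to 49 Mb (-0.90) and the first 21 of chromosome 17 (-0.84). Of 61 bins on chromosome 20, 49 were higher and none lower by edgeR, with a median of 0.58, and of 169 on chromosome 6, 4 were higher and 105 lower.

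**Figure D5:**
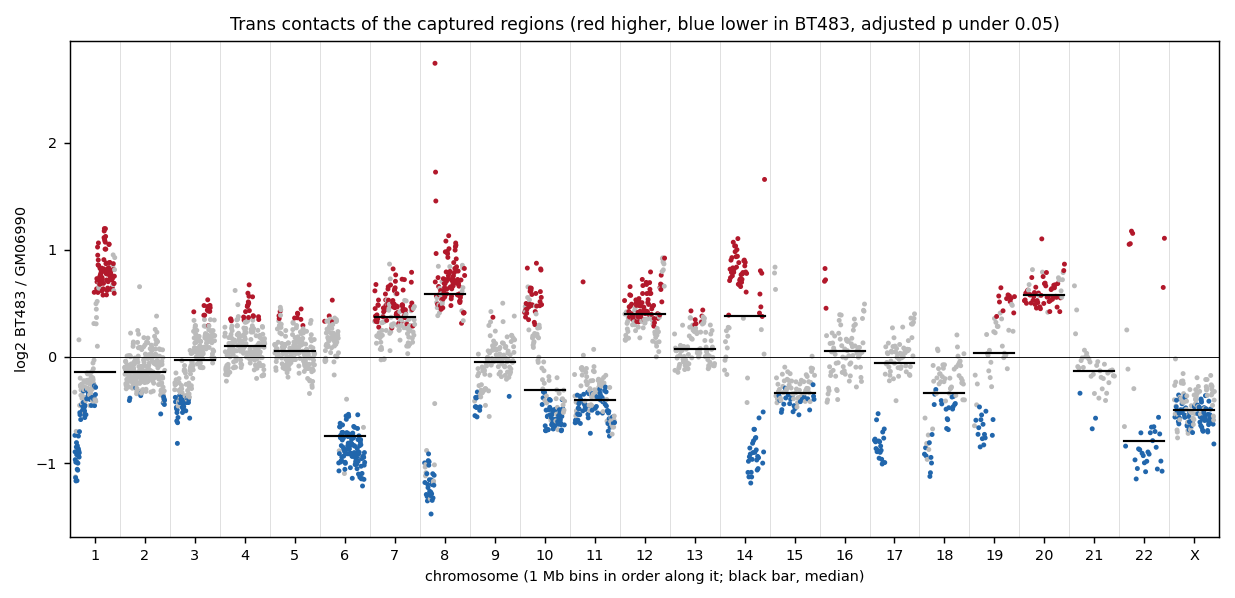
Log2 ratio of BT483 over GM06990 in trans contacts (vertical axis) for each 1 Mb bin, in order along the chromosomes (horizontal axis), with the median of each chromosome as a black bar. Red bins were higher and blue bins lower in BT483 at an adjusted p under 0.05; colours change in long blocks, and the single highest bin, at 2.74, is at 37 Mb of chromosome 8.

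Bins of genes known from breast cancer and from B cells were read as well. Of 19 bins that held 20 breast cancer genes, 6 were higher and 1 lower, where 18.6% of all bins were higher and 20.2% lower. Their median log2 was 0.27, beside -0.02 over all bins. The share called was near the 38.8% over all bins, so it is no result about these genes. The bin of FOXA1, a pioneer factor of luminal breast cells, had 640 and 760 CPM in BT483, against 325 and 357 in GM06990 (log2 1.07 ± 0.10, adjusted p = 0.00307). GATA3, another luminal transcription factor, was higher by 0.44 ± 0.10 (adjusted p = 0.0163), FGFR1, a growth factor receptor, by 0.70 ± 0.11 (0.00551), ZNF217, a zinc finger protein often amplified in breast cancer, by 0.68 ± 0.09 (0.00378) and MDM4, a gene often gained in tumours, by 0.62 ± 0.16 (0.0255); ZNF703 lies in the 37 Mb bin above. ESR1, the estrogen receptor, had 187 and 249 CPM in BT483, against 394 and 389 in GM06990 (log2 -0.80 ± 0.13, adjusted p = 0.00619). ERBB2, the receptor HER2, and CCND1, cyclin D1, did not pass the test, at 0.27 and -0.36 (adjusted p of 0.0819 and 0.0613). Of 12 bins of B cell genes, 2 were higher and 4 lower, beside the same 38.8% of all bins called, with a median log2 of -0.08. The 2 higher were CD79A, part of the B cell receptor, by 0.43 ± 0.10 (adjusted p = 0.0167) and IRF4, a factor of plasma cells, by 0.33 ± 0.10 (0.045). The 4 lower were BACH2, a repressor of B cells, at -0.90 ± 0.10 (adjusted p = 0.00307), MS4A1, which encodes CD20, at -0.50 (0.0197), POU2AF1, a coactivator of B cells, at -0.50 (0.00909) and BCL2, which blocks cell death, at -0.44 (0.0234). Several of these bins lie within runs called the same way: FOXA1 on chromosome 14 (30 to 60 Mb), MDM4 on chromosome 1 (160 to 237 Mb), ZNF217 on chromosome 20 (38 to 53 Mb), ESR1 and BACH2 on chromosome 6 (95 to 162 and 86 to 94 Mb) and POU2AF1 on chromosome 11 (110 to 118 Mb). Their differences were therefore not particular to the bin of the gene. The FGFR1 bin, at 38 Mb of chromosome 8, lies between larger differences at 37 and 39 Mb (log2 2.74 and 1.73). The same bin seen from 8q24.21 did not pass the test.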

How the data were processed

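Capture Hi-C libraries of BT483 and GM06990, 2 replicates each, were compared, with SUM44 in the fits for the spread. The authors deposited raw counts of ligated pairs by captured and target HindIII fragment within 5 Mb, and by 50 kb window farther away and on other chromosomes. Per the submitters' processing notes, CASAVA 1.8 and GRCh37 (hg19) were used; aligner and filters are not given in the sources used here. The 6 count columns of contacts within captured regions were not used. BT483 and GM06990 libraries held 1860834 to 5867422 contacts.

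Counts were summed over captured fragments. Expected near cis counts came from a Poisson regression for each replicate and region on a natural spline of log10 distance (4 knots) and the captured fragment's trans count. For far cis bins the regression used only a spline of the distance from the edge of the captured region (3 knots), with no trans count. edgeR 4.0.16 (R 4.3.3) fitted quasi-likelihood models with these as offsets, or TMM factors for trans bins, over the 6 libraries. Features needed 50 contacts in BT483 or GM06990, and p-values were adjusted by Benjamini-Hochberg with 0.05 as threshold. A log2 value is BT483 over GM06990, ± a standard error derived from the test, its absolute size over the square root of the F statistic. DESeq2 1.42.0 and other curves, filters and scalings were alternatives. The fits were tested on simulated data with 2-fold changes. Of the changed fragments 54.5% were called, and 6.03% of the calls were false. These shares were 100% and 9.09% for windows of 250 kb, and 94% and 4.57% for those of 50 kb. They were 94.9% and 5.66% for far cis bins, and 94.5% and 3.57% for trans bins.

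No GRCh37 annotation was used. Starts of 214 genes were placed to the nearest 10 kb from general knowledge, with no file behind each place, and spacing was checked on RefSeq (GRCh38.p14), where 194 of 208 neighbouring pairs differed by at most 30 kb. The check accepted either end of a RefSeq gene, so a place can be the far end of a gene. PHLPP2, placed in the window of MARVELD3, is counted among the genes but given no result for this reason. DIRC3, TNS1, ASAP1, PALM2, AKAP2, PMFBP1, ZFHX3 and SLC14A2, the 8 without a neighbour at the RefSeq spacing, were left out after the data were seen, and TNP1 lies inside a captured region. Because a place is good to 10 kb only, genes are given by their 50 kb window, not their start fragment, and a window can hold other elements. Gene bins of trans contacts were placed in the same way. A gene first placed on the breast cancer list is not reported here, so its count and median cover the remaining genes only.

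Genes were named by a rule: up to 6 called per region and direction, by size, beside a set list, 4 fragments or far bins per direction and region and 4 trans bins per direction; the text gives the larger ones in full. Other bins, windows and genes named were chosen after their values were seen. Regions, gene lists and rules were all chosen with earlier results of these data known. Replicate numbers come only from column names and were not taken to pair the lines in the main fits.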

Additional observations from a re-analysis of the deposited data

How the results depend on the processing

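With the replicate number as a block, the calls were 1223 fragments, 106 windows of 250 kb, 350 of 50 kb, 297 far cis bins, 1026 trans bins and 61 windows of listed genes, against 1288, 96, 324, 277, 1111 and 54. Deviations of same-numbered libraries correlated at -0.0511 over fragments and 0.138 over far cis bins. With 2 replicates per line, this cannot show whether libraries of the same number shared a batch. Leaving out 1 library gave 259 to 1713 fragments, 40 to 118 windows of 250 kb, 126 to 385 of 50 kb, 92 to 423 far cis bins, 0 to 2234 trans bins and 18 to 60 windows of listed genes, always lowest without a GM06990 library; all 96 windows of 250 kb, 324 of 50 kb, 277 far cis and 1111 trans bins kept their direction in these fits. With only the 4 libraries of these lines, 964 fragments, 72 windows of 250 kb, 208 of 50 kb, 184 far cis bins, 653 trans bins and 29 windows of listed genes were called. Each count is lower than with SUM44, whose replicates lay closer together in their trans and near cis shares, so the main counts depend on SUM44 being in the fit. DESeq2 called 613 fragments, and a minimum of 200 contacts left 702 called of 2150 tested. With a separate curve on each side, the FAM84B window turned from 0.45 to -0.26. Over fragments of at least 1 kb, an alternative chosen after seeing the data like the length term and all settings of the 50 kb windows, higher and lower calls were 377 and 589 for fragments, 40 and 60 for windows of 250 kb and 108 and 175 for those of 50 kb, against 665 and 623, 51 and 45, and 156 and 168. An exact permutation test of 2 replicates against 2 cannot go below p = 0.333, so every p rests on the spread that edgeR shares across features. The causes were not tested. At this depth, 7865 of 17969 target fragments reached the 50 contacts needed for a test.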

Other observations

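BT483 replicates stood apart in a few trans bins that the test did not call or called only weakly. The bin of AURKA on chromosome 20, a mitotic kinase gene, had 926 and 406 CPM in BT483, against 413 and 415 in GM06990 (log2 0.72 ± 0.37, adjusted p = 0.17). The bin at 10 Mb of chromosome 8 had 206 and 83.1 CPM in BT483, against 370 and 364 in GM06990 (log2 -1.35 ± 0.40, adjusted p = 0.0419), and a log2 difference of -2.10 without BT483 replicate 1 and -0.76 without BT483 replicate 2.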
